A study of Mus musculus with 4 samples.

Results

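Integrins and Cd44, the receptors with which leukemia cells hold on to marrow stroma and to each other, were examined in the LICs of the murine MLL-AF9 model. The 10 genes are a list of named adhesion receptors: 6 alpha subunits (Itgam, Itgal, Itgax, Itga4, Itga5 and Itgav), 3 beta subunits (Itgb1, Itgb2 and Itgb3) and Cd44. They are 10 of the 27179 genes with a deposited value, and all 10 were above the level needed for testing. RNA-sequencing was carried out on 4 libraries from sorted bone marrow cells that the labels call LSC, 2 from wild type (WT) and 2 from CD274-/- (CD274-null) cells, strain C57BL/6, age 6 weeks. Both groups carry MLL-AF9, a fusion oncogene put by retrovirus into Lin- fetal liver cells, which were then transplanted into irradiated C57BL/6 mice. The methods describe LICs as Mac-1+/c-Kit+ cells, so Mac-1 protein, the dimer of Itgam and Itgb2, was part of the gate. The number of mice behind a library and the round of transplantation of the sequenced cells are not given in the sources used here. If the libraries of a group are not from separate mice, the p-values measure technical spread.

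An integrin is a dimer of 1 alpha and 1 beta subunit that spans the membrane, binds a ligand outside the cell and ties it to actin inside. The beta subunit Itgb2 is specific to leukocytes and pairs with Itgam (Mac-1), Itgal (LFA-1) or Itgax (CD11c). The beta subunit Itgb1 pairs among others with Itga4 (VLA-4, which binds Vcam1 and fibronectin) and Itga5 (the fibronectin receptor), whereas Itgav pairs with Itgb3 and other beta subunits and binds vitronectin and osteopontin. Cd44 is no integrin. It binds hyaluronan, and it is known for anchoring leukemia stem cells in their niche.

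Values are FPKM, fragments per kilobase of gene scaled to the mapped reads of the library, so levels of different genes can be compared. Total reads recovered from the FPKM values, known up to a factor that the libraries share, lay between 8452662 and 11048767 per library. The gate markers were present: Itgam ranged from 100 to 174 FPKM and Kit, which encodes c-Kit, from 6.59 to 19.5 FPKM, with the lowest Kit in WT replicate 1. Neutrophil markers, 9 genes detected in every library, were lowest in WT replicate 2 for all 9, and their summed FPKM was 42057 and 8400 in WT against 17585 and 30558 in CD274-null. The deleted gene did not separate the groups (Cd274 FPKM 2.80 and 0.945 in WT, then 1.43 and 2.29 in CD274-null), so every direction below rests on the labels. A single value per gene does not show whether reads fell in the deleted part. Sex markers differed between libraries as well: Xist was 2.57 and 51.1 FPKM in WT and 107 and 68.7 FPKM in CD274-null, and 4 Y chromosome genes summed to 0.046 FPKM in CD274-null replicate 1 and to 29.4 to 86.0 FPKM in the others. In bulk samples, fewer cells of a type and less RNA per cell cannot be told apart.

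The LICs expressed the adhesion receptors over a wide range of levels. Itgb2 was the highest, with a mean of 180 FPKM over the 4 libraries, followed by Itgam with 145 FPKM. Cd44 and Itgb1 followed with means of 51.6 and 51.0 FPKM. Itgal (29.4 FPKM), Itga5 (22.9 FPKM) and Itga4 (22.6 FPKM) formed a middle group, Itgav (5.81 FPKM) and Itgb3 (4.90 FPKM) were low, and Itgax had a mean of 1.24 FPKM. In this order 3 steps were wider than the spread of the libraries, those from Itgam to Cd44, from Itgb1 to Itgal and from Itga4 to Itgav, where the ranges of the neighbours did not overlap. Itgb2 exceeded Itgam, and Itgb3 exceeded Itgax, in 4 of 4 libraries, although the ranges overlapped. Cd44 and Itgb1, Itga5 and Itga4, and Itgav and Itgb3 each changed places between libraries, with 2 libraries in either order, and Itgal exceeded Itga5 in 3 of 4. By rank, Itgb2 stood at place 283 to 512 and Itgam at place 389 to 829 among the 16344 to 17038 genes above 0 in a library.

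**Figure D1:**
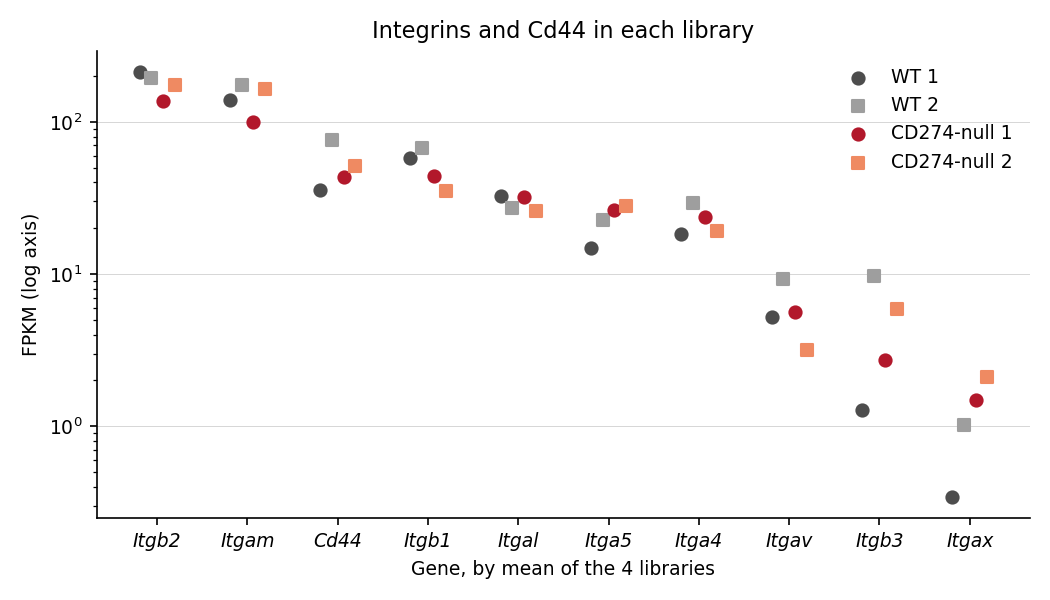
FPKM of the 10 genes (log axis) in each of the 4 libraries, 1 point per library, grey for WT and red or orange for CD274-null, ordered by the mean of the 4 libraries. The points of Itgal lie between 25.9 and 32.5 FPKM, while those of Itgb3 spread from 1.27 to 9.73 FPKM.

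To ask whether the adhesion receptors differ between CD274-null and WT LICs, log2(FPKM + 0.5) was compared with limma over all 13230 genes whose mean FPKM reached 0.5. None of the 10 genes was a candidate at the thresholds of the study, a p below 0.01 together with a change of over 1.5-fold. The study does not say whether its p was adjusted, and the limma p before adjustment was used here. Both thresholds were passed by 3.63% of all tested genes. The same 0 of 10 had an adjusted p under 0.05 (Benjamini-Hochberg), against 0.0756% of all tested genes. At an unadjusted p under 0.05, 1 of the 10 passed, Itgb1, and 13.7% of all tested genes did. The count of candidates among the 10 was 0 by voom on recovered reads and in a fit with no moderation of the variance as well, where 2 and 0 of the 10 had an unadjusted p under 0.05. By direction, 7 genes had a negative and 3 a positive log2 fold change, with a median of -0.13, where the median of all tested genes was 0.01. With 2 libraries per group an exact permutation test of a single gene cannot give a two-sided p below 0.333, so the limma fit, which borrows spread from other genes, was the test used.

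**Figure D2:**
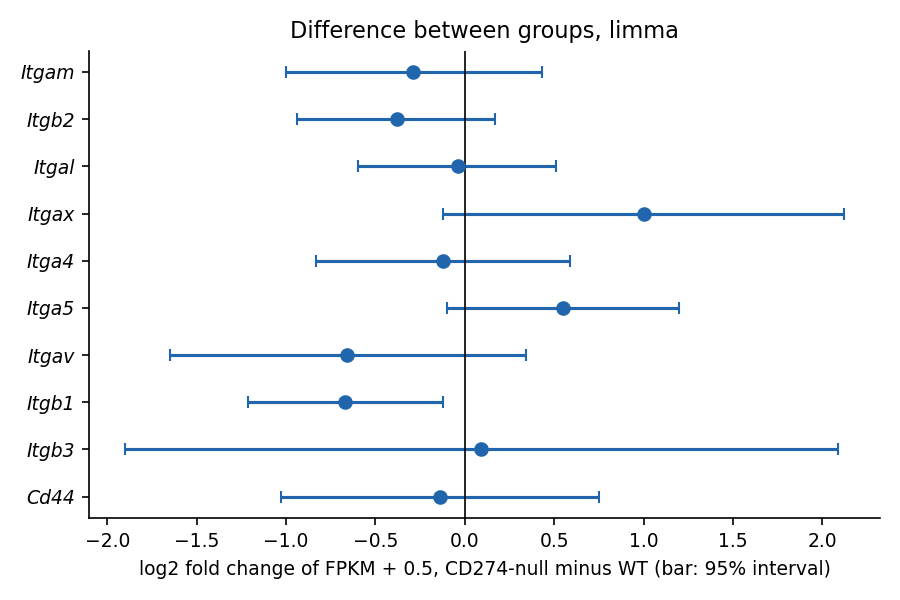
Log2 fold change of FPKM + 0.5, CD274-null minus WT, for the 10 genes (points) with 95% intervals from limma (bars); the vertical line marks no difference. The interval of Itgb1, from -1.21 to -0.12, is the only one of the 10 that leaves out 0, and that of Itgb3 is the widest, from -1.90 to 2.09.

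Both CD274-null libraries lay above both WT libraries for Itgax and Itga5, 2 of 10 genes where 25.6% of all tested genes did so. Both lay below for Itgb1 and Itgb2, again 2 of 10, where 21.8% of all tested genes did so. The other 6 genes overlapped between the groups. For 3 of the 10, Itgax, Itgb1 and Itgb2, the difference of the group means was larger than the gap between replicates in either group, as it was for 33.8% of all tested genes. These shares are near those of the whole table. The gap between the WT libraries was wide for several of these genes, with a median of 0.63 on the log2 scale against 0.34 over all tested genes, while the gap between the CD274-null libraries had a median of 0.33 against 0.28.

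**Figure D3:**
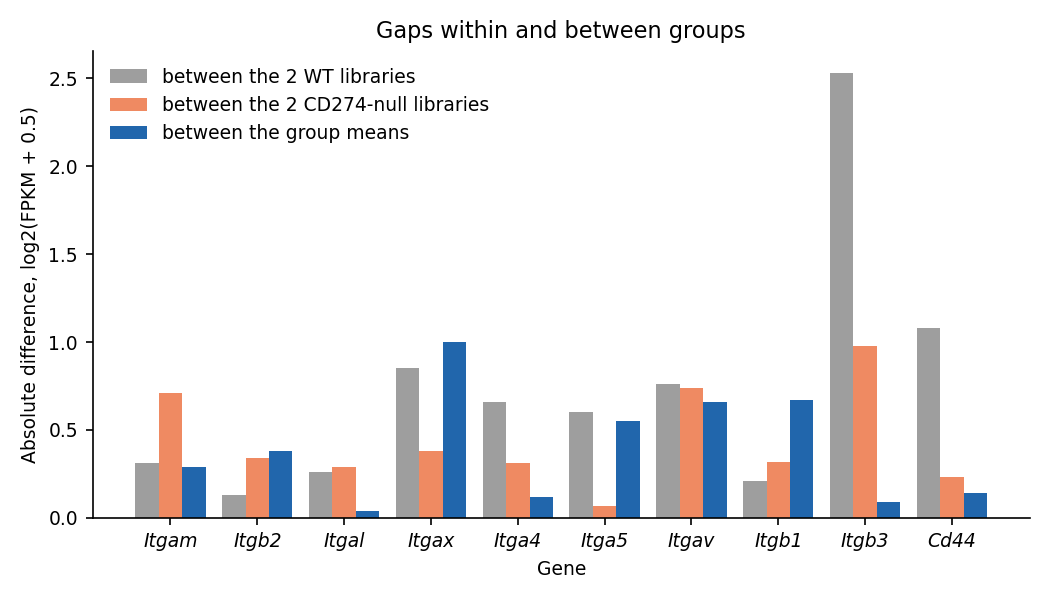
Absolute difference in log2(FPKM + 0.5) for each gene between the 2 WT libraries (grey), between the 2 CD274-null libraries (orange) and between the group means (blue). The WT gap of Itgb3 is 2.53 and that of Cd44 is 1.08, where the group means differ by 0.09 and 0.14.

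Among the leukocyte integrins, the gate marker Itgam, which encodes the alpha chain of Mac-1 and takes part in phagocyte adhesion and complement uptake (NCBI gene 16409, chromosome 7, 128062640 to 128118491 of GRCm38.p6), had 140 and 174 FPKM in WT and 100 and 164 FPKM in CD274-null. CD274-null replicate 1 was the lowest of the 4 and the groups overlapped. The means were 157 ± 24.2 (SD, n = 2) and 132 ± 45.1 (SD, n = 2), and the log2 fold change was -0.29 (95% interval -1.0 to 0.43, adjusted p = 0.692 from limma). Since cells were sorted on this protein, its RNA level is not independent of the gate. Its beta chain Itgb2 (NCBI gene 16414, chromosome 10, 77530329 to 77565708) had 213 and 194 FPKM in WT and 138 and 175 FPKM in CD274-null. Both CD274-null values were below both WT values, and their mean was 77.0% of the WT mean. The test was not passed (log2 fold change -0.38, 95% interval -0.94 to 0.17, adjusted p = 0.496 from limma). With a library left out, the log2 fold change of Itgb2 lay between -0.56 and -0.21, the latter without CD274-null replicate 1.

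Itgal, the alpha chain of LFA-1 with which leukocytes bind ICAM proteins (NCBI gene 16408, chromosome 7, 127296139 to 127335137), was the steadiest of the 10. It had 32.5 and 27.1 FPKM in WT and 31.9 and 25.9 FPKM in CD274-null, so that each group held 1 higher and 1 lower library. The highest library was 1.25 times the lowest, and the log2 fold change was -0.04 (95% interval -0.60 to 0.51). Itgax, best known as a dendritic cell marker (NCBI gene 16411, chromosome 7, 128129526 to 128150657), was low in all libraries, with 0.344 and 1.02 FPKM in WT and 1.49 and 2.10 FPKM in CD274-null. These values rest on 16, 42, 53 and 84 reads, which give counting errors of 25.0%, 15.4%, 13.7% and 10.9%. Both CD274-null libraries exceeded both WT libraries, and the ratio of means was 2.62, yet the interval of the log2 fold change of 1.0 ran from -0.12 to 2.12 (adjusted p = 0.404 from limma). This value moves with the processing, from 0.75 with a pseudocount of 1 to 1.59 with voom on the reads (unadjusted p = 0.0337), and it was 0.58 without WT replicate 1 and 1.43 without WT replicate 2 (unadjusted p = 0.0252). Without trend the unadjusted p was 0.0408. A list of 9 dendritic cell markers, all above 0 in at least 1 library, summed to 3.26 and 15.2 FPKM in WT and to 19.8 and 10.6 FPKM in CD274-null. Most of the sum was Flt3 (2.46 and 11.9, then 12.8 and 5.93 FPKM) and Clec10a (0.576 and 2.68, then 5.12 and 2.21 FPKM), and the groups overlapped for these genes. Cd209a (0.0582 and 0, then 0.838 and 1.02 FPKM), Clec9a (0.0262 and 0.0298, then 0.309 and 0.488 FPKM), Ccr9 (0.0197 and 0.0447, then 0.232 and 0.160 FPKM) and Siglech (0 in both, then 0.142 and 0.126 FPKM) were higher in both CD274-null libraries, as Itgax was, at levels of at most 1.02 FPKM. Batf3, Xcr1 and Zbtb46 overlapped between the groups and were at most 0.423, 0.221 and 0.0883 FPKM. Their part in the Itgax values was not tested.

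Itgam and Itgax are neighbours on chromosome 7, 11034 bases apart, and their levels differ by a factor of 67.3 to 408 within a library. The 250 bases before the start given for each in the RefSeq promoter table (GRCm38.p6, both on the plus strand, chr7:128062390-128062639 and chr7:128129300-128129549) are shown because this pair has the highest and the lowest level among the 6 alpha subunits examined here. Capitals mark GAGGAA or its other strand TTCCTC, the core of the sites of PU.1, a myeloid transcription factor known to act on the Itgam promoter. The motif occurs in 23.3% of the 32851 promoter windows of this length.
Itgam: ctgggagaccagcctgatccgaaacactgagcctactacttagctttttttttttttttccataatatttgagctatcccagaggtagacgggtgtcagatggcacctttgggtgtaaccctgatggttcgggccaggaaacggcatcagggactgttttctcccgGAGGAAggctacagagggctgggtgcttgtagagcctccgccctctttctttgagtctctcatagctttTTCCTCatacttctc
Itgax: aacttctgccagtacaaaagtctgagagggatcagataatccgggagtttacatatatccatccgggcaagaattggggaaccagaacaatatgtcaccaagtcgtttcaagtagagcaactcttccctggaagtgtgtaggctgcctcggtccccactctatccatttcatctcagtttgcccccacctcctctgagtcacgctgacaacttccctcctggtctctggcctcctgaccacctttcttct
In this window Itgam has 2 matches, whose first bases lie 84 and 15 bases before the start, and Itgax has 0. The low Itgav also has 2 matches and the mid-level Itga4 has 0. The starts of Itgax and Itgav in the promoter table lie inside their gene spans given in the text, so the Itgax window includes the first bases of its span and the Itgav window lies wholly within its own. A match is a description of letters only, and the window covers no distant element. Spi1, which encodes PU.1, had 356 and 332 FPKM in WT and 271 and 260 FPKM in CD274-null; it is no candidate and was named after its values were seen.

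The subunits of VLA-4 and of the fibronectin receptor had log2 fold changes of either sign, and none was a candidate. Itgb1 (NCBI gene 16412, chromosome 8, 128685654 to 128733579), their shared beta chain, had 57.9 and 67.2 FPKM in WT and 43.9 and 35.0 FPKM in CD274-null. Both CD274-null libraries were below both WT libraries, from 1460 to 2871 reads per library. The means were 62.6 ± 6.59 (SD, n = 2) and 39.4 ± 6.30 (SD, n = 2), 63.0% of the WT mean, and the log2 fold change of -0.67 (standard error 0.22) had an unadjusted p of 0.0235 and an adjusted p of 0.313 from limma. The sign was kept under every alternative fit, between -0.69 and -0.51, and between -0.83 and -0.50 with a library left out. The unadjusted p rose to 0.133 without CD274-null replicate 2, to 0.0756 without WT replicate 2, to 0.0753 without moderation and to 0.0706 with the GC correction and the replicate block, where 0 of the 10 receptors passed 0.05.

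Itga5, the alpha chain of the fibronectin receptor (NCBI gene 16402, chromosome 15, 103344286 to 103366791), lay in the other direction, with 14.8 and 22.7 FPKM in WT and 26.4 and 27.8 FPKM in CD274-null. WT replicate 1 was the lowest and the CD274-null libraries were nearly equal. Its log2 fold change of 0.55 had a 95% interval of -0.10 to 1.20 (unadjusted p = 0.0858, adjusted p = 0.420 from limma), and it was 0.25 without WT replicate 1, 0.85 without WT replicate 2 (unadjusted p = 0.0157) and 0.34 with the GC correction (unadjusted p = 0.240). Itga4, the alpha chain of VLA-4 (NCBI gene 16401, chromosome 2, 79255426 to 79333114), had 18.4 and 29.3 FPKM in WT and 23.8 and 19.1 FPKM in CD274-null. Both CD274-null values lay between the WT values, and the log2 fold change of -0.12 (95% interval -0.83 to 0.59) changed sign with a correction for GC content, to 0.06. The exons of Itga4 overlap those of Cerkl on the other strand, which had 3.10 to 9.32 FPKM, and the strand setting of the counting is not given in the sources used here. The exons of Itgam and Itgav also overlap those of other annotated genes, Gm49368 on the same strand and Gm13684 on the other strand.

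Within a library, Itgb1 exceeded Itga5 by a factor of 3.91 and 2.96 in WT and of 1.66 and 1.26 in CD274-null, which follows from the opposite directions of both genes. Itgb1 over Itga4 was 3.15 and 2.29 in WT against 1.84 and 1.83 in CD274-null. Itga4 over Itga5 was above 1 in both WT libraries (1.24 and 1.29) and below 1 in both CD274-null libraries (0.901 and 0.686). By contrast, Itgam over Itgb2 overlapped between the groups, with 0.658 and 0.899 in WT against 0.725 and 0.935 in CD274-null. The 4 alpha genes that pair with Itgb2 (Itgam, Itgal, Itgax and Itgad) together came to between 0.813 and 1.10 times its FPKM. These ratios were chosen after the values were seen and were not tested.

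**Figure D4:**
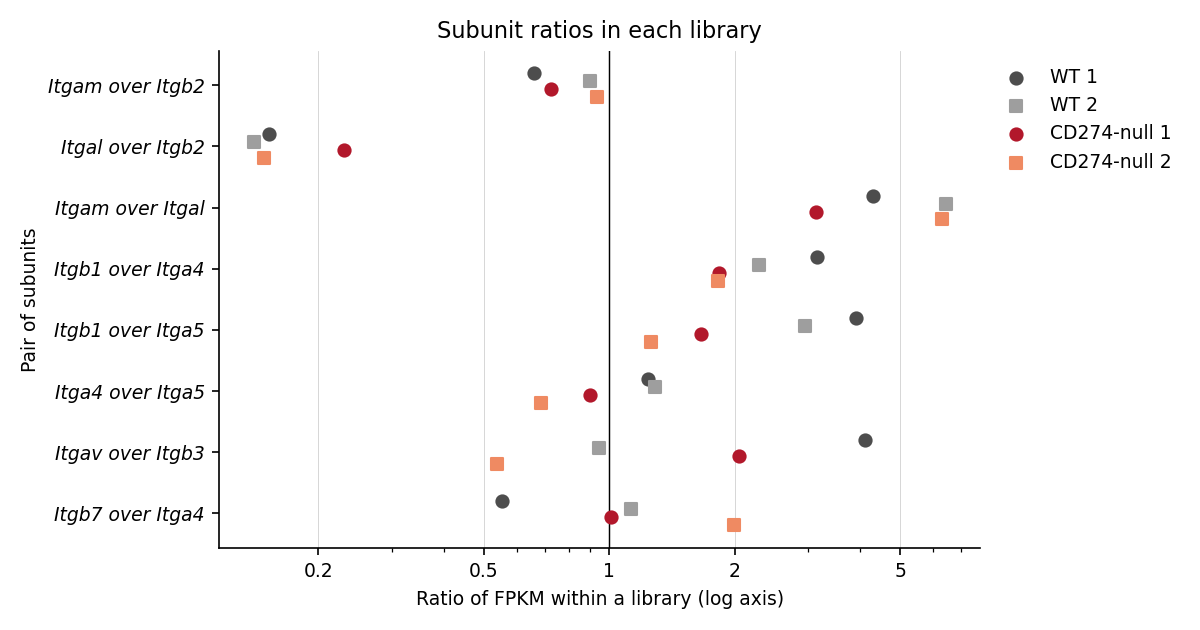
Ratio of the FPKM of 2 integrin subunits within each library (log axis), 1 point per library, grey for WT and red or orange for CD274-null; the vertical line marks equal levels. The CD274-null points of Itgb1 over Itga5 lie at 1.66 and 1.26, left of the WT points at 3.91 and 2.96, while those of Itgam over Itgb2 are mixed.

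The promoter windows of Itgb1 (plus strand, chr8:128685404-128685653) and Itga5 (minus strand, chr15:103366792-103367041), again 250 bases before the RefSeq start, are shown as the partners of 1 receptor whose values lay in opposite directions. Capitals mark the same motif.
Itgb1: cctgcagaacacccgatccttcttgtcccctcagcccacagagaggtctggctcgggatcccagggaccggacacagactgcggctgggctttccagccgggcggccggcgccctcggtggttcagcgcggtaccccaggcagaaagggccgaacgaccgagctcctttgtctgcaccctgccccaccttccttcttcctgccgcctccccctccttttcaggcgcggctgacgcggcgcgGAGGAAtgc
Itga5: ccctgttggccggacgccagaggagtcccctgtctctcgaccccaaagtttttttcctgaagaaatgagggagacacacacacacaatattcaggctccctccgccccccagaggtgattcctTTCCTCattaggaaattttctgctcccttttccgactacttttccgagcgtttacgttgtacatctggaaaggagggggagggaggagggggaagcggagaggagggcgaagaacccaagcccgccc
Each holds 1 match, 9 bases before the start in Itgb1 and 127 bases in Itga5. Base composition differs, with 68.0% G or C in the Itgb1 window and 55.6% in that of Itga5.

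The vitronectin receptor subunits were low and variable. Itgav (NCBI gene 16410, chromosome 2, 83722303 to 83806917) had 5.23 and 9.22 FPKM in WT and 5.63 and 3.16 FPKM in CD274-null. The lowest value was in CD274-null replicate 2 and the highest in WT replicate 2, and the log2 fold change was -0.66 (95% interval -1.65 to 0.34, adjusted p = 0.515 from limma). It was -0.28 without either of these libraries, -1.04 without WT replicate 1 and -1.03 without CD274-null replicate 1. Itgb3, the beta chain of this receptor and of the platelet fibrinogen receptor (NCBI gene 16416, chromosome 11, 104608000 to 104670476), had 1.27 and 9.73 FPKM in WT and 2.74 and 5.87 FPKM in CD274-null, from 85, 573, 140 and 338 reads. The WT libraries were the lowest and the highest of the 4 and differed 7.66-fold. Only 1.20% of all tested genes had a gap of at least this size between the WT libraries. The group difference therefore turned on 1 library: the log2 fold change was 0.09 with all libraries, -1.17 without WT replicate 1, 1.36 without WT replicate 2 and -0.39 without CD274-null replicate 2.

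Since Itgb3 also marks platelets and megakaryocytes, 11 of their markers were summed, and they came to 27.3 and 23.1 FPKM in WT and 25.4 and 59.4 FPKM in CD274-null. Most of the sum was Gp1bb, with 20.9 and 15.4 FPKM in WT and 20.2 and 43.8 FPKM in CD274-null, while Gp9 lay between 0.848 and 3.71 FPKM and Gp1ba between 1.11 and 1.66 FPKM. Pf4, Ppbp and Gp6 were at 0 in all 4 libraries. Their part in the Itgb3 values was not tested. Itga2b, the alpha partner of Itgb3 in platelets, had 3.62 and 5.03 FPKM in WT and 2.30 and 10.1 FPKM in CD274-null. Itgav over Itgb3 ran from 0.538 to 4.12 across the libraries.

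Cd44 (NCBI gene 12505, chromosome 2, 102811141 to 102901669, minus strand), the hyaluronan receptor, had 35.7 and 75.8 FPKM in WT and 43.5 and 51.3 FPKM in CD274-null. The WT libraries were again the lowest and the highest of the 4, and both CD274-null libraries lay between them. The means were 55.7 ± 28.4 (SD, n = 2) and 47.4 ± 5.50 (SD, n = 2). The log2 fold change of -0.14 (95% interval -1.03 to 0.75, adjusted p = 0.897 from limma) was -0.68 without WT replicate 1 and 0.40 without WT replicate 2. One value per gene does not show which of the variable exons of Cd44 were used. WT replicate 1, the lowest library for Cd44, Itgb3, Itgax, Itga5 and Itga4, is the library with the lowest Kit and the highest summed neutrophil markers given above, and their part in these values was not tested.

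The remaining 17 integrin genes were examined as a list. Of these, 7 were tested, 0 were candidates (3.63% of all tested genes), and their median log2 fold change was 0.71, where that of all tested genes was 0.01. Itga6, a laminin receptor chain, lay lower in both CD274-null libraries (11.2 and 16.1 FPKM in WT, 7.88 and 8.12 in CD274-null, unadjusted p = 0.0416 from limma), and Itga10, a collagen receptor chain, lay higher (0.240 and 0.136, then 1.19 and 0.995, unadjusted p = 0.0286). Both were named after their values were seen, and 13.7% of all tested genes had an unadjusted p under 0.05. Itga10 (means 0.188 FPKM in WT and 1.09 FPKM in CD274-null) reached the level for testing only through CD274-null, so its p is a description. Itgb4, also named after its values were seen, passed in the same way (means 0.225 and 2.61 FPKM). Itga10 and Itgb4 both enter the median of 0.71. The highest of the list, Itgb7, which pairs with Itga4 in gut-homing cells, had 10.1 and 33.0 FPKM in WT and 24.1 and 37.9 FPKM in CD274-null, overlapping between groups. Its level relative to Itga4 was 0.551 and 1.13 in WT against 1.01 and 1.99 in CD274-null. Itga3, Itgb6 and Itgb8 were listed at 0 in all libraries.

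Genes around the receptors were described in 5 further lists. Over all 6 lists 85 of 121 genes were tested and 7 were candidates, 8.24% against 3.63% of all tested genes, and 0 had an adjusted p under 0.05 (20 of 85 had an unadjusted p under 0.05, against 13.7% of all tested genes). The lists were chosen with earlier results of these data known, so these shares are descriptions. Among 24 genes that switch integrins on or off, 19 were tested and 1 was a candidate, Rasgrp2, an exchange factor that loads Rap1 and so activates integrins. Rasgrp2 had 75.2 and 94.2 FPKM in WT and 152 and 254 FPKM in CD274-null (log2 fold change 1.22, adjusted p = 0.27 from limma). Its unadjusted p was 0.00618, and between 0.00851 and 0.0484 with a library left out, the call being kept only without CD274-null replicate 1. With all libraries kept, the call was lost without the filter (unadjusted p = 0.0111 from limma), with equal medians (0.0133) and without trend (0.0145). The highest gene of this list was Flna, a filamin that binds beta tails, with 320 and 328 FPKM in WT and 212 and 256 FPKM in CD274-null (adjusted p = 0.414). Rap1b, the GTPase on which Rasgrp2 acts, named after its values were seen, had 198 and 204 FPKM in WT and 150 and 119 FPKM in CD274-null (adjusted p = 0.346). An unadjusted p under 0.05 in limma was reached by 5 of the 19 genes (13.7% of all tested genes). Of these, 1 was higher, Rasgrp2, and 4 were lower, Rap1b, Rapgef1, Rassf5 and Skap2. Rapgef1, named like Rassf5 and Skap2 after the values were seen, had 35.8 and 33.3 FPKM in WT and 22.4 and 17 FPKM in CD274-null. The median log2 fold change of the list was -0.08.

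Of 31 kinases, adaptors and actin linkers of adhesion sites, 25 were tested and 0 were candidates (3.63% of all tested genes). Their median log2 fold change was -0.19. An unadjusted p under 0.05 in limma was reached by 2 (13.7% of all tested genes), Lyn (lower) and Tgfb1i1 (higher). Both were named after their values were seen. Tgfb1i1 had 0.171 and 0.227 FPKM in WT and 1.16 and 1.06 FPKM in CD274-null, from 6, 7, 31 and 32 reads. It reached the level for testing only through CD274-null, so its p is a description. The highest gene of the list was Parvg, a parvin that links integrins to actin, with 151 and 154 FPKM in WT and 141 and 120 FPKM in CD274-null (adjusted p = 0.656 from limma). Of 19 ligands, 11 were tested and 1 was a candidate (3.63% of all tested genes), Vcam1, a ligand of VLA-4. Vcam1 had 117 and 92.3 FPKM in WT and 53.7 and 59.8 FPKM in CD274-null, 54.2% of the WT mean (log2 fold change -0.87, unadjusted p = 0.00704, adjusted p = 0.272 from limma), and the call was kept only without WT replicate 2 when a library was left out (p from 0.00543 to 0.0610). With all libraries kept, Vcam1 lost the call in limma with the GC correction (log2 fold change -0.68, unadjusted p = 0.0228, or 0.0348 with the replicate block added), without trend (unadjusted p = 0.0190) and without moderation (unadjusted p = 0.0433). C3, the complement protein whose fragment binds Mac-1, was the highest ligand, at 295 and 121 FPKM in WT and 169 and 286 FPKM in CD274-null. Among other ligands, named after their values were seen, Icam1 and Icam2, which bind LFA-1, were 11.5 and 12.4 then 17.5 and 25.3 FPKM, and 24.6 and 33.0 then 46.3 and 68.2 FPKM (adjusted p = 0.313 and 0.288). Fn1, which encodes fibronectin and was also named after its values were seen, had 65.6 and 108 FPKM in WT and 56.1 and 11.7 FPKM in CD274-null (adjusted p = 0.358).

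Of 22 genes of the Cd44 and selectin axis, 15 were tested and 4 were candidates, where 3.63% of all tested genes were, with a median log2 fold change of -0.28. Candidates that fell were Msn and Glg1. Msn, which encodes moesin, a linker of the Cd44 tail to actin, had 194 and 244 FPKM in WT and 125 and 108 FPKM in CD274-null (log2 fold change -0.90, adjusted p = 0.272 from limma). Glg1, a ligand of E-selectin, had 29.6 and 48.7 FPKM in WT and 18 and 13.3 FPKM in CD274-null (log2 fold change -1.26, adjusted p = 0.27 from limma). Candidates that rose were Hyal2, a hyaluronidase, with 0.888 and 1.43 then 3.79 and 5.0 FPKM (log2 fold change 1.57, adjusted p = 0.267), and Cd74, the MHC class II invariant chain that can form a receptor complex with Cd44 (log2 fold change 3.07, adjusted p = 0.0693). With a library left out, the unadjusted p reached 0.0654 for Msn, 0.0792 for Glg1 and 0.0429 for Hyal2, each losing the call in 3 of 4 cases, while Cd74 stayed at or below 0.00443. With all libraries kept, calls from limma were also lost by Msn without trend (unadjusted p = 0.0171) and with the GC correction and replicate block (0.0151), by Glg1 without the filter (0.0103) and without trend (0.0134), and by Hyal2 without the filter (0.0138) and with the GC correction and replicate block (0.0118). Msn lost its call without WT replicate 2 or either CD274-null library, Glg1 without the same libraries, and Hyal2 without WT replicate 1 or either CD274-null library. The 10 B and plasma cell markers summed to 22.0 and 45.4 FPKM in WT and to 263 and 240 FPKM in CD274-null. Igkc made up 214 and 189 FPKM of the CD274-null sums, whereas Cd79b was the highest of these markers in WT with 12.8 and 36.2 FPKM and overlapped with its 35.6 and 37.4 FPKM in CD274-null. Sdc1 overlapped as well, at most 0.296 FPKM, while Tnfrsf17 was at most 0.121 FPKM in WT and had 0.139 and 0.124 FPKM in CD274-null. Pax5 was at 0 in both WT libraries and at most 0.416 FPKM in CD274-null, and Vpreb3 was above 0 in CD274-null replicate 2 alone. Their part in the Cd74 values was not tested.

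**Figure D5:**
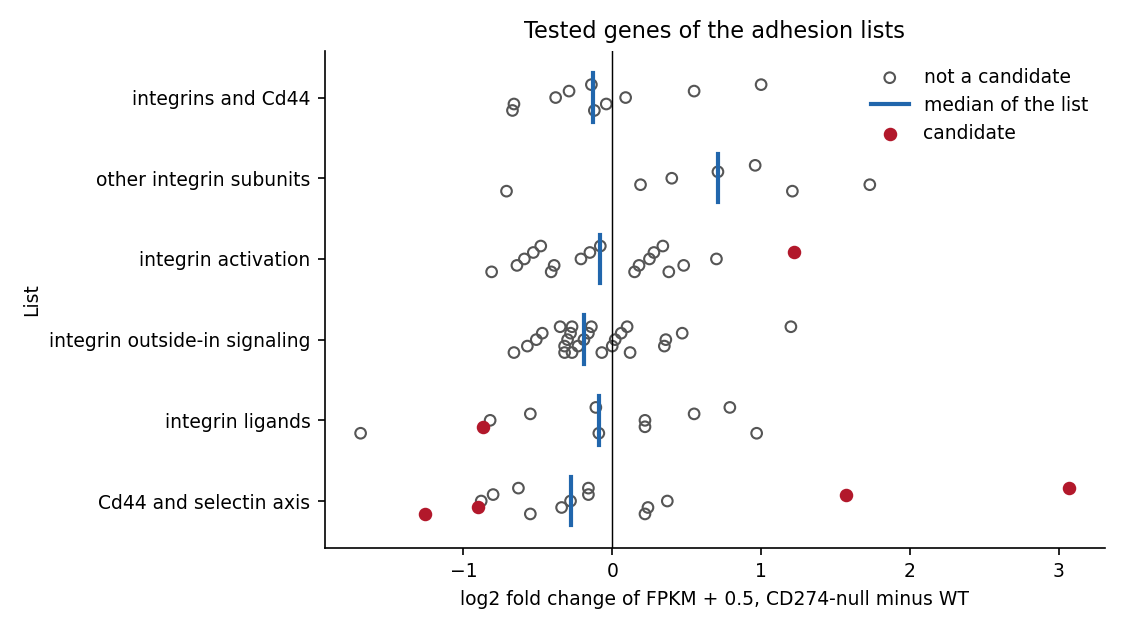
Log2 fold change of FPKM + 0.5, CD274-null minus WT, of each tested gene in the receptors and in 5 lists of related genes (1 circle per gene; red, candidates; blue bars, medians; the vertical spread within a list only separates the circles). The 10 receptors hold 0 candidates, the Cd44 and selectin axis holds 4, and the other integrin subunits have the highest median, 0.71. That median includes Itga10 and Itgb4, which reached the level for testing only through CD274-null.

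In the list for the gate and the leukemia program, all 8 genes were tested and 1 was a candidate (3.63% of all tested genes), Mpo, the myeloperoxidase of primary granules and also the highest of the list. Mpo had 444 and 403 FPKM in WT and 1427 and 925 FPKM in CD274-null (log2 fold change 1.44, unadjusted p = 0.00319, adjusted p = 0.251 from limma), and it lost the call without any 1 of the 4 libraries (p from 0.0105 to 0.0360) or without the filter (0.0126). Hoxa9 and Meis1, targets of MLL-AF9 that were named after their values were seen, were at 71.3 to 75.8 and 35.6 to 44.6 FPKM in all libraries. The 10 macrophage markers summed to 30.7 and 51.8 FPKM in WT and to 36.7 and 46.7 FPKM in CD274-null, with Timd4 at 0 in all 4 libraries. The 9 T and NK cell markers summed to 33.2 and 13.4 FPKM in WT and to 70.4 and 87.5 FPKM in CD274-null, nearly all of it Nkg7, a candidate with 32.4 and 11.7 then 67.2 and 85.7 FPKM, while each of the others was at most 0.884 FPKM. The 9 stroma and endothelium markers summed to 13.4 and 19.5 FPKM in WT and to 25.1 and 52.0 FPKM in CD274-null. Most of the sum was Pecam1 (11.8 and 18.3, then 18.7 and 49.1 FPKM), higher in both CD274-null libraries. So were Col1a1 (0.973 and 0.793, then 3.65 and 1.88 FPKM) and Col1a2 (0.42 and 0.21, then 1.78 and 0.547 FPKM). Col3a1, Cxcl12 and Cdh5 were also higher in both, at levels of at most 0.695 FPKM. Lepr and Kdr overlapped, at most 0.0341 FPKM, and Emcn was at 0 in all 4 libraries. The 7 erythroid markers summed to 2.54 and 55.6 FPKM in WT and to 4.73 and 0.480 FPKM in CD274-null. The part of these markers in the adhesion gene values was not tested.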

How the data were processed

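RNA of sorted LICs was sequenced as TruSeq v2 libraries, which the authors mapped against GRCm38 (TopHat2 2.0.12, CASAVA 1.8.2 in the submitters' processing notes) and deposited FPKM values per gene and library; the program, gene lengths and strand setting behind FPKM are not given in the sources used here. Libraries were grouped by their labels. Of 27179 genes, 25275 had a symbol in RefSeq GRCm38.p6. Whole reads up to a common factor were recovered from the ratios of FPKM for 17083 genes; they summed to 11048767 and 9740856 in WT against 8452662 and 9520926 in CD274-null, and intervals from them cover counting error only. The test was limma 3.58.1 in R 4.3.3 (eBayes with trend) on log2(FPKM + 0.5) for 13230 genes whose mean FPKM reached 0.5, adjusted by Benjamini-Hochberg over all of them, and checked on simulated data. Fold changes on this scale understate changes of low genes. Named were the 10 receptors and, of each list, candidates and the highest gene; others are marked, apart from cell type and sample markers, genes at 0 and genes that pair or overlap with a receptor. Members and lists were chosen with earlier results of these data known. Alternatives covered pseudocount, filter, scaling, moderation, voom, GC content (loess), a replicate block and leaving out each library. In the main fit the log2 fold change correlated with GC content (Spearman 0.27 over 11435 tested genes). Promoters (7 of 10 matched) are from RefSeq GRCm38.p6.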

Additional observations from a re-analysis of the deposited data

How the results depend on the processing

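None of the 10 receptors became a candidate under any of the 16 alternatives. Their fold changes kept the direction in 114 of 118 values from alternatives that use all libraries; the exceptions were Itga4 (0.06) and Cd44 (0.03) with the GC correction, with and without the replicate block. With a library left out, 8 of 40 values changed direction: the range was -0.64 to 0.07 for Itgam, -0.19 to 0.10 for Itgal, -0.45 to 0.21 for Itga4, -1.17 to 1.36 for Itgb3 and -0.68 to 0.40 for Cd44. In these fits the lone library of a group is assumed to vary like the other group. The receptors without overlap between groups numbered 4, and 5 to 9 with a library left out, where a group of 1 overlaps less easily. Candidates among all genes numbered 480, but 170 without moderation of the variance, 277 with the GC correction and the replicate block (338 with the GC correction alone, both over 11435 genes; the cause was not tested), and 147 to 634 with a library left out. Candidates of the 6 lists numbered 7, but 1 without moderation and 1 to 6 with a library left out. Without moderation, Rasgrp2, Vcam1, Msn, Glg1, Hyal2, Mpo and Cd74 were no longer candidates. The replicate number of the labels gave no pairing (correlation of same-numbered deviations -0.02 across genes); as a replicate block it gave 526 candidates and 0 receptors, and 21 genes with an adjusted p under 0.05 in place of 10. Itgax and Itgb3 were not tested at a mean FPKM of at least 5. Depth limits Itgax most, with 16 to 84 reads per library.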
